A study of Rattus norvegicus with 12 samples.

Results

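The genes described here are 10 genes that mark osteoblasts as they lay down mineral and turn into osteocytes: Bglap, Ibsp and Dmp1, whose products lie in the bone matrix, the enzymes Alpl and Smpd3, the membrane proteins Panx3 and Ifitm5, the hormone receptor Pthr1, the secreted protein Kazald1 and the transcription factor Dlx5. They are 10 of the 22523 probes of a rat expression array, 1 probe a gene, found by their symbol in the deposited table after removal of the ending that marks a predicted or mapped gene. The genes were selected on their levels in the osteoblast cultures, where they were high after injury and low after stimulation, so the osteoblast treatment values below are a description and support nothing further. All 10 were detected in at least 1 pool, as were 9102 probes of the array.

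The arrays measured cells grown from the bone marrow of male Wistar-Hannover rats. The SCI+FES animals had a transected spinal cord, received a muscle microstimulator 14 weeks later and had functional electrical stimulation (FES), in which current makes the paralysed muscle contract, for 60 minutes on each of 7 days from week 16. The SCI animals had the transection. For SCI animals with sham FES the protocol gives implant surgery and gastrocnemius ablation in week 14, no stimulator unit, and collection in week 17, and the labels do not say whether the SCI pools are these animals. The sham animals had the same operation with the cord left whole, and their tissue was taken 12 to 14 weeks after it. Injury, implant surgery, gastrocnemius ablation and time since surgery therefore cannot be told apart between SCI and sham. Between SCI+FES and sham, injury, the stimulator and its surgery, stimulation and time since surgery cannot be told apart. Between SCI+FES and SCI, stimulation cannot be told apart from the stimulator unit. Nor can it be told apart from gastrocnemius ablation, implant surgery or time since surgery, since which animals the SCI pools are is not stated. Marrow cells from each treatment were cultured as osteoblasts, the cells that form bone, or as osteoclasts, the cells that resorb it. For each of the 6 combinations, RNA from 3 to 4 animals was combined into 1 pool, which was run on 2 arrays. The original IDs carry the mark d10 for the 3 osteoblast pools and d3 for the SCI+FES and sham osteoclast pools, and no such mark for the SCI osteoclast pool. The number 1302 stands in the IDs of 3 pools, SCI+FES osteoblast, SCI+FES osteoclast and SCI osteoclast, and what it stands for is not stated. An L follows it for the SCI+FES osteoclast pool and an R for the SCI osteoclast pool. Whether these are limbs of the same animals is not stated. The SCI osteoblast ID holds 1314 and the sham IDs hold 1372. SCI+FES against SCI may thus differ in kind between the culture types, within animals or between them.

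Osteoblasts first secrete a collagen matrix and then mineralise it. Alkaline phosphatase removes pyrophosphate, which blocks crystal growth, while bone sialoprotein, osteocalcin and dentin matrix protein 1 bind calcium or mineral in the matrix. The cells that become buried are osteocytes. Parathyroid hormone acts on osteoblasts and osteocytes through its receptor, and unloading of the skeleton, as after paralysis, is known for bone loss.

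Levels are given as log2 of the normalized intensity. A deposited detection p-value of at most 0.01 on both arrays of a pool was taken as detection. Because the duplicate arrays share an RNA pool, each treatment in a culture type is n = 1 pool, no test of treatment within a culture type can be had, and the treatment differences have no replicate check. The standard error (SE) beside a difference comes from the duplicates and measures array error alone. A probe was counted as higher or lower, the size rule below, when pool means differed at least 2-fold, the arrays of the pools did not overlap and at least 1 of the pools had detected it. Folds against a pool that did not detect the probe on every array are lower bounds, written "at least". The SD between duplicate arrays was 0.11 over detected probes and 0.14 over the 10 genes. The markers bore out the culture labels in part: 8 of 8 osteoblast and stromal markers were detected in every osteoblast pool, but so were 9 of 9 macrophage markers and 5 or 6 of 7 osteoclast markers. In the osteoclast pools 6 or 7 of 7 osteoclast markers were detected, beside 4, 4 and 7 of 8 stromal markers in the SCI+FES, SCI and sham pools. With pooled RNA of mixed cells, fewer cells of a type and less RNA per cell cannot be told apart.

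Promoter windows of 7 of the 10 genes could be read from RefSeq, assembly GRCr8. Each has 300 bases that run from 250 before the annotated gene start to 50 after it. The probe symbol Pthr1 was matched through its definition, parathyroid hormone receptor 1, to the RefSeq gene Pth1r. Of these 7, 4 are shown 5′ to 3′ on the gene's own strand, as examples of a promoter with a TATA box (Bglap and Ibsp) and of one with GC boxes (Alpl and Pthr1). Capitals mark matches to the motifs searched on both strands: ACCACA, the core bound by RUNX factors, TATAAA, the TATA box, and GGGCGG, the GC box, with overlapping matches run together. Bglap lies on the minus strand (window chr2:176137269-176137568) and so do Ibsp (chr14:5757193-5757492), Alpl (chr5:155289736-155290035) and Pthr1 (chr8:119595522-119595821).
Bglap: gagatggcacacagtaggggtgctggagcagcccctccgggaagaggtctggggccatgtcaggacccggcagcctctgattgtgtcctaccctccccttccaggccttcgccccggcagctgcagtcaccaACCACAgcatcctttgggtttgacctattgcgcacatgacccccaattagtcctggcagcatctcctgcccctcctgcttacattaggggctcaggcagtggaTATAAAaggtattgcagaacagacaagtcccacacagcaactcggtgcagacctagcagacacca
Ibsp: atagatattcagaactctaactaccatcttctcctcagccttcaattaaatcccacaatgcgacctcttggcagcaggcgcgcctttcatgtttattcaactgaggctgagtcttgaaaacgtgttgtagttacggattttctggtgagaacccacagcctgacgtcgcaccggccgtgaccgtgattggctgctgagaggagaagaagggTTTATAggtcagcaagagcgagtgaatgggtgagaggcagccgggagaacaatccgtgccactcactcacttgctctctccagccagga
Alpl: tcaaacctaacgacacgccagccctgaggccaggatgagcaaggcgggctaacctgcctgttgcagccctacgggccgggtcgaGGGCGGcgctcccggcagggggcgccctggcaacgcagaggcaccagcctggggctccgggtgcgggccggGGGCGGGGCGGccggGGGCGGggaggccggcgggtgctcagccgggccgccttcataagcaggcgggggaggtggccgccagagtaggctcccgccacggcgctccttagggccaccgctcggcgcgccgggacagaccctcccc
Pthr1: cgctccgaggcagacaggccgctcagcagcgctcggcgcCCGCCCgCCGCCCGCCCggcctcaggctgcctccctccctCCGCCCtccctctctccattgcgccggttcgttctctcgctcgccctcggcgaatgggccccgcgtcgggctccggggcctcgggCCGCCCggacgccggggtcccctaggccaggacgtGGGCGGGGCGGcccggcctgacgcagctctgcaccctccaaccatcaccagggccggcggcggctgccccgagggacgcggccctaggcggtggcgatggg
Bglap, the gene of osteocalcin, holds a RUNX core and a TATA box, and Ibsp holds the TATA box inverted, as TTTATA, an orientation known for this promoter. Alpl holds 4 GC boxes and Pthr1 holds 7, counted on both strands, and neither holds a TATA box in this window. Over the 7 windows, the RUNX core was found in 1, the TATA box in 2 and the GC box in 3 (Alpl, Kazald1 and Pthr1). The windows of Ifitm5 and Dmp1 held none of the motifs searched. Near its end the Dmp1 window holds an ATG with an open reading frame. It may thus lie inside the gene and not at its promoter, so its lack of motifs is no result about the Dmp1 promoter. The homeodomain core TAATTA and the AP-1 motif TGANTCA were found in 0 of 7. Among all 33469 rat promoters of this length, 17.3% hold the RUNX core, 14.2% the TATA box, 33.1% the GC box, 5.36% TAATTA and 7.33% TGANTCA. A match or its lack describes these letters only.

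In the osteoblast cultures the 10 genes were highest in the SCI pool and lowest, or level with sham, in the SCI+FES pool. All 10 were detected in the SCI pool, against 9 in the sham pool, where Dmp1 was not detected. In the SCI+FES pool 5 were detected, Ibsp, Alpl, Smpd3, Kazald1 and Pthr1. By the size rule 7 of 10 were higher in SCI than in sham, where 1.99% of 8460 probes were, and 0 were lower, where 1.38% were. In SCI+FES against SCI, 10 of 10 were lower, where 1.48% of 8357 probes were, and 0 were higher, where 1.71% were. In SCI+FES against sham, 6 of the 9 genes detected in either pool were lower, where 3.28% of 8608 probes were, and 0 were higher, where 4.25% were. The median difference of the 10 genes was 1.81 for SCI minus sham, with a range of 0.63 to 4.34. It was -2.55 for SCI+FES minus SCI (-5.46 to -1.29) and -1.09 for SCI+FES minus sham (-1.74 to 0.14). The median over detected probes was -0.02, 0.01 and -0.02 in these 3 comparisons. Since the genes were chosen for this pattern, these counts say nothing of how unusual it is, and the comparisons share pools.

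**Figure D1:**
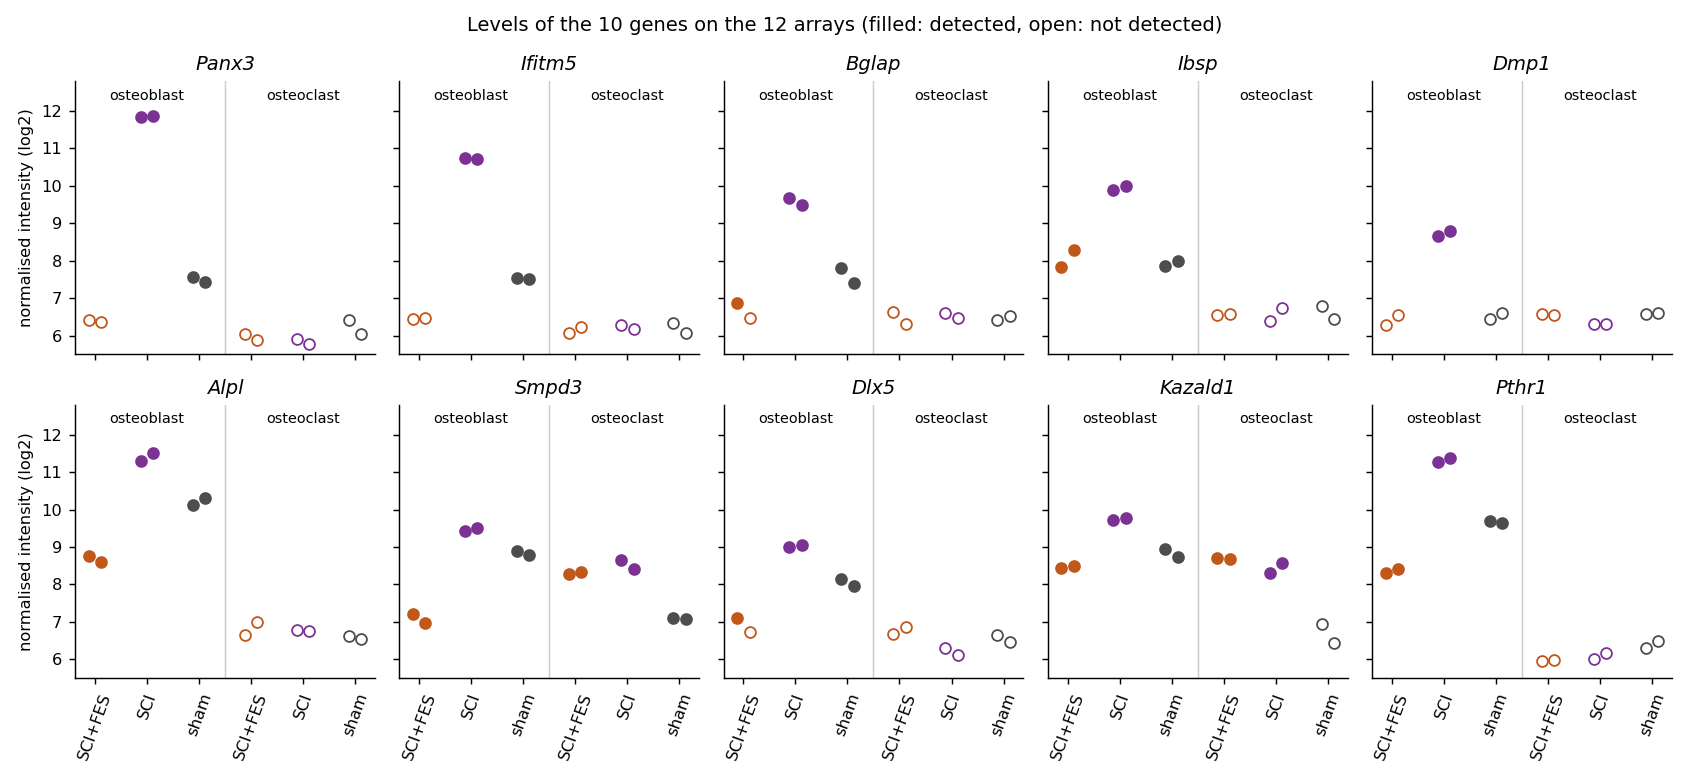
Normalized level (log2, vertical axis) of each of the 10 genes on each of the 12 arrays, by pool (horizontal axis, SCI+FES, SCI and sham, osteoblast cultures before osteoclast cultures), with a filled point for an array that detected the probe and an open point for one that did not. The SCI osteoblast arrays stand highest for every gene, and 8 of the 10 genes are undetected on all osteoclast arrays.

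The 3 matrix genes differed in their starting level and in how far SCI+FES lay below SCI. Bglap, which encodes osteocalcin, the vitamin K dependent protein of mature osteoblasts, read 6.86 and 6.47 on the SCI+FES arrays, 9.67 and 9.49 on the SCI arrays and 7.81 and 7.40 on the sham arrays. The 3 pools did not overlap, and 1 of the 2 SCI+FES arrays detected the gene. Bglap was 3.94-fold higher in SCI than in sham (difference 1.98 ± 0.22 SE) and at least 6.79-fold lower in SCI+FES than in SCI (-2.92 ± 0.21). In SCI+FES against sham it was at least 1.72-fold lower, with a measured difference of -0.94 that fell just short of the size rule and passed it in 5 of 9 other settings. Ibsp, the gene of bone sialoprotein, an acidic protein that can seed hydroxyapatite, read 7.84 and 8.28 in SCI+FES, 9.90 and 9.99 in SCI and 7.86 and 7.98 in sham. Here the SCI+FES and sham arrays overlapped, with a difference of 0.14 ± 0.23, and only SCI stood apart. Its SCI level was 4.07-fold that of sham (2.03 ± 0.08), and SCI+FES lay 3.70-fold below SCI (-1.89 ± 0.23). Dmp1 encodes dentin matrix protein 1, a phosphoprotein of osteocytes. It read 6.29 and 6.55 in SCI+FES, 8.67 and 8.79 in SCI and 6.45 and 6.61 in sham, and only the SCI pool detected it. Dmp1 was at least 3.83-fold higher in SCI than in sham and at least 3.80-fold lower in SCI+FES than in SCI, and no fold can be given between the SCI+FES and sham pools.

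Both enzymes were lowest in SCI+FES and detected in all 3 osteoblast pools. Alpl, tissue-nonspecific alkaline phosphatase, read 8.77 and 8.59 in SCI+FES, 11.30 and 11.50 in SCI and 10.13 and 10.30 in sham, with no overlap. It was 2.27-fold higher in SCI than in sham (1.18 ± 0.13, or 0.88 and short of the rule when arrays were scaled to a common median), 6.58-fold lower in SCI+FES than in SCI (-2.72 ± 0.13) and 2.90-fold lower in SCI+FES than in sham (-1.54 ± 0.12). Smpd3 encodes neutral sphingomyelinase 2, which cleaves sphingomyelin to ceramide and phosphocholine and whose loss in mice leaves bone poorly mineralised. It read 7.22 and 6.97 in SCI+FES, 9.42 and 9.51 in SCI and 8.89 and 8.79 in sham. SCI lay 1.55-fold above sham (0.63 ± 0.07), under the 2-fold rule, while SCI+FES lay 5.18-fold below SCI (-2.37 ± 0.13) and 3.35-fold below sham (-1.74 ± 0.13).

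The membrane proteins gave the widest ranges. Panx3, a pannexin that forms channels for ATP and calcium in osteoblasts and cartilage cells, had deposited signals of 6.2 and 2.2 on the SCI+FES arrays, 2949 and 3587 on the SCI arrays and 153 and 137 on the sham arrays. The same arrays read 6.43 and 6.35, 11.83 and 11.87, and 7.57 and 7.44 after normalization, with no overlap and no detection on either SCI+FES array. Panx3 was 20.3-fold higher in SCI than in sham (4.34 ± 0.07), 1st of 8460 probes, and at least 33.0-fold lower in SCI+FES than in SCI (-5.46 ± 0.04), the lowest of 8357. In SCI+FES against sham it was at least 1.63-fold lower, and the measured difference of -1.12 ± 0.07 met the size rule. Ifitm5, a bone-restricted relative of the interferon-induced transmembrane proteins whose human gene is mutated in a form of brittle bone disease, followed Panx3. Its levels were 6.44 and 6.49 in SCI+FES, 10.74 and 10.73 in SCI and 7.55 and 7.50 in sham. The 3 pools did not overlap, and SCI+FES was again undetected. Ifitm5 was 9.26-fold higher in SCI than in sham (3.21 ± 0.02) and at least 15.2-fold lower in SCI+FES than in SCI (-4.27 ± 0.02). In SCI+FES against sham it was at least 1.65-fold lower, and its measured difference of -1.06 ± 0.03 met the size rule. The bounds of Panx3 and Ifitm5 in that comparison are under 2-fold.

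Pthr1, the receptor for parathyroid hormone and its related peptide, read 8.32 and 8.42 in SCI+FES, 11.26 and 11.39 in SCI and 9.70 and 9.65 in sham. It was detected in all 3 osteoblast pools, which did not overlap. Pthr1 was 3.13-fold higher in SCI than in sham (1.65 ± 0.07), 7.75-fold lower in SCI+FES than in SCI (-2.95 ± 0.08) and 2.47-fold lower in SCI+FES than in sham (-1.31 ± 0.06). Dlx5 encodes a homeodomain factor that activates osteoblast genes. It read 7.10 and 6.74 in SCI+FES, where 1 of 2 arrays detected it, 8.99 and 9.05 in SCI and 8.15 and 7.97 in sham. Its SCI level was 1.94-fold that of sham (0.96 ± 0.10), just short of the 2-fold rule, and SCI+FES lay at least 4.23-fold below SCI (-2.10 ± 0.18) and at least 2.18-fold below sham. Kazald1, a secreted protein with Kazal and insulin-like growth factor binding domains, first described in bone and tooth forming cells of the mouse, had the narrowest range. It read 8.43 and 8.49 in SCI+FES, 9.73 and 9.77 in SCI and 8.96 and 8.73 in sham. The pools did not overlap, but SCI was 1.88-fold above sham (0.91 ± 0.11), SCI+FES 2.45-fold below SCI (-1.29 ± 0.04) and SCI+FES 1.30-fold below sham (-0.38 ± 0.12), so only the middle difference met the rule.

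**Figure D2:**
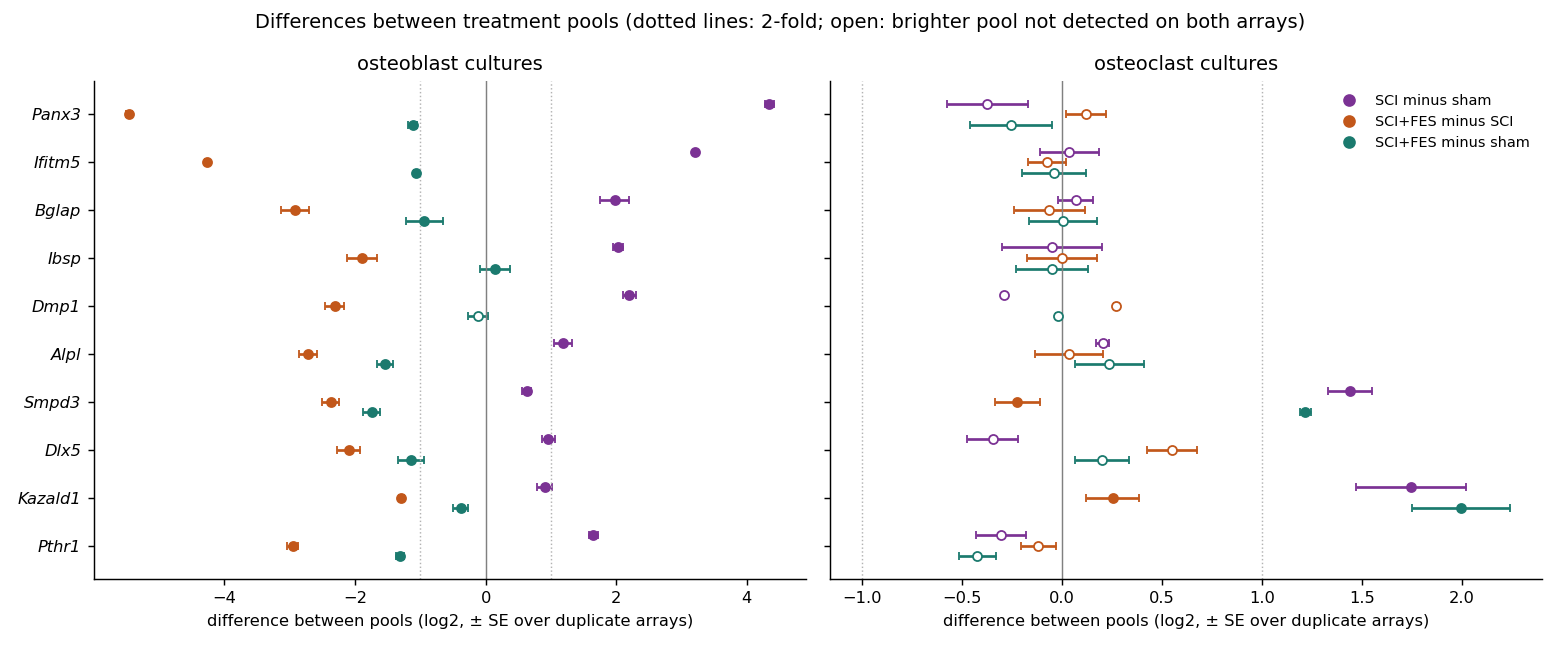
Difference between pools (log2, horizontal axis, ± SE over duplicate arrays) for each gene (vertical axis) in osteoblast cultures (left) and osteoclast cultures (right, on a wider-spread scale), with a colour for each comparison, dotted lines at 2-fold and open points where the brighter pool did not detect the gene on both arrays. In osteoblast cultures SCI+FES minus SCI lies below -1 for all 10 genes, and in osteoclast cultures Smpd3 and Kazald1 alone lie beyond 1.

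In the osteoclast cultures 8 of the 10 genes were not detected in any pool. The exceptions were Smpd3 and Kazald1, which were higher in both injured pools than in sham. Smpd3 read 8.29 and 8.34 in SCI+FES, 8.65 and 8.43 in SCI and 7.11 and 7.08 in sham, and all 6 arrays detected it. The sham arrays lay below all others, with a difference of 1.44 ± 0.11 for SCI minus sham (2.71-fold) and 1.22 ± 0.03 for SCI+FES minus sham (2.32-fold). Scaled to a common median, the second difference was 0.82 and short of the rule. Kazald1 read 8.71 and 8.67 in SCI+FES, 8.30 and 8.57 in SCI and 6.93 and 6.45 in sham, where it was not detected. It was at least 2.84-fold higher in SCI and at least 3.38-fold higher in SCI+FES than in sham. SCI+FES minus SCI was -0.22 ± 0.11 for Smpd3 and 0.25 ± 0.13 for Kazald1, both within 2-fold. Over all detected probes, 0.972% of 7815 were higher and 1.84% lower in SCI than in sham, 1.73% of 7796 were higher and 2.4% lower in SCI+FES than in sham, and 0.316% of 7591 were higher and 0% lower in SCI+FES than in SCI. Only 2 of the 10 genes entered these comparisons, and Kazald1 entered through the injured pools alone, so nothing is read from their count.

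Markers of other cells moved with Smpd3 and Kazald1 in these pools. Of 9 macrophage markers, 8 were detected and 3 were higher in SCI than in sham, Emr1, C1qb and C1qc, by 1.98, 1.18 and 1.06 on the log2 scale, with a list median of 0.86. Cd14 (-0.37) and Cd68 (-0.20) were not higher. The stromal markers Col1a2, Lum and Postn were lower. The stromal markers summed to 1215 to 1226 in SCI+FES, 1273 to 1337 in SCI and 3702 to 4029 in sham as normalized intensity over 8 genes. The 9 macrophage markers summed to 62730 to 63224, 59943 to 60296 and 59467 to 60069 in the same pools, with Cd163 undetected in all of them. Stromal markers were thus highest in the pool where Smpd3 and Kazald1 were lowest. Genes of the other lists differed between the same pools, with Pdpn, an osteocyte gene for a membrane glycoprotein, higher by 1.53 in both SCI and SCI+FES than in sham. The connexin gene Gja1 differed by -1.17 for SCI minus sham and by -1.22 for SCI+FES minus sham. Ankh, a pyrophosphate transporter gene, was lower in SCI+FES than in sham (-1.09 ± 0.06), and so was Sparc (-1.15 ± 0.16). Of the cell cycle genes, Mcm2 and Mcm6 were higher in both injured pools than in sham, and Cdc2, Mcm3, Mcm7 and Aurkb in SCI+FES. The part of these markers and genes in the result was not tested.

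Across culture types, osteoblast and osteoclast pools were compared in limma over 9102 detected probes, with 3 pools of different treatments on each side. The marks d10 and, where given, d3 in the IDs, which may be days in culture, run with culture type. Culture type and time in culture therefore cannot be told apart in this contrast. This contrast was not used to choose the genes, but it holds the osteoblast arrays that were, so it is no independent evidence. All of the 10 genes but Smpd3 and Kazald1 were undetected on every osteoclast array, so they entered through the osteoblast pools alone. Their counts and p-values here are a description. Of the 10 genes 3 were higher in osteoblast pools at an adjusted p of at most 0.05 and 2-fold, where 6.61% of probes were. Pthr1 averaged 9.79 ± 1.48 in osteoblast pools and 6.15 ± 0.22 in osteoclast pools (SD, n = 3 each), at least 7.14-fold higher (limma adjusted p = 0.0083). Alpl averaged 10.10 ± 1.36 in osteoblast pools and 6.73 ± 0.13 in osteoclast pools, at least 8.85-fold higher (limma adjusted p = 0.00794). Ibsp averaged 8.64 ± 1.13 and 6.58 ± 0.03 in the same order of cultures, at least 3.23-fold higher (limma adjusted p = 0.0243). These 3 genes were higher in the osteoblast pool of every treatment, by 2.40 to 5.24 for Pthr1, 1.87 to 4.62 for Alpl and 1.30 to 3.38 for Ibsp. The call of Ibsp ended when any 1 of the osteoclast pools was left out (difference 2.05 to 2.08, highest limma adjusted p = 0.0795), while 6 of the 10 genes passed without the SCI+FES osteoblast pool.

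The other 7 genes did not pass, and their spread among the osteoblast pools was wide. Panx3 had the largest difference of them, 2.57 ± 1.28 (SE), with a limma adjusted p of 0.175. Its gap between culture types was 0.42 for SCI+FES, 6.0 for SCI and 1.28 for sham, so the gap was widest between the SCI pools. Ifitm5 gave 2.04 ± 0.99 (limma adjusted p = 0.163), Dlx5 1.49 ± 0.49 (limma adjusted p = 0.0601) and Bglap 1.45 ± 0.67 (limma adjusted p = 0.145). In these 4 genes and the 3 that passed, every osteoblast pool lay above every osteoclast pool, 7 of 10 genes where 20.8% of probes did so. All 7 entered through the osteoblast pools alone, while other probes could enter through either culture type, so nothing is read from that count. The genes were chosen on the osteoblast cultures, so leaving out the SCI osteoblast pool does not free the difference from that choice. Without that pool, the difference was 0.93 for Panx3, 0.80 for Ifitm5, 0.64 for Bglap and 0.98 for Dlx5. It was then 2.87 for Pthr1, 2.72 for Alpl and 1.41 for Ibsp, 0.71 for Kazald1 and below 0 for Dmp1 (-0.016) and Smpd3 (-0.0156). Dmp1 (0.74 ± 0.59), Kazald1 (1.08 ± 0.57) and Smpd3 (0.48 ± 0.65) overlapped between culture types, with limma adjusted p of 0.378, 0.197 and 0.604. For Smpd3 and Kazald1 the SCI+FES pools ran the other way, with osteoblast minus osteoclast at -1.22 and -0.23.

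None of the relatives of the 10 genes that have a probe was higher by the size rule in SCI than in sham or lower in SCI+FES than in SCI in osteoblast cultures. Ibsp and Dmp1 lie side by side on chromosome 14, in the gene order Spp1, Mepe, Ibsp, Dmp1 and Dspp. Spp1, the gene of osteopontin, another acidic matrix protein, was among the brightest probes and read 14.20 in SCI+FES, 14.17 in SCI and 14.19 in sham osteoblast pools. Dspp was detected in no pool. Ifitm1 and Ifitm3, the interferon-induced relatives of Ifitm5, differed by -0.25 and -0.02 for SCI minus sham and by -0.07 and -0.24 for SCI+FES minus SCI. In osteoclast pools Ifitm3 was lower in SCI (-1.41) and in SCI+FES (-1.96) than in sham. Panx2 was detected in no pool and Panx1 on single arrays only. The other sphingomyelinases Smpd1, Smpd2 and Smpd4 were detected in every pool and stayed within 2-fold in all 6 comparisons. Dlx3 was the nearest relative in pattern, at 6.92 in SCI+FES, 7.66 in SCI and 6.85 in sham osteoblast pools, with differences of 0.81 ± 0.14 for SCI minus sham and -0.74 ± 0.15 for SCI+FES minus SCI, under the rule. Dlx1, Dlx2, Dlx6, Pth2r and Alpi were detected in no pool. Among the insulin-like growth factor binding proteins, set beside Kazald1 for its binding domain, Igfbp6 was highest in sham instead, at 8.35 in SCI+FES, 9.32 in SCI and 10.50 in sham osteoblast pools, and Igfbp3 was highest in SCI+FES, at 10.05, 9.46 and 8.68 in the same pools. Igfbp7 differed by 0.17 for SCI minus sham and by -0.49 for SCI+FES minus SCI, while Igfbp2, Igfbp4 and Igfbp5 were detected on both arrays of no pool.

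Lists of related genes, with the 10 genes left out, are set beside the shares over all probes, of which 1.99% were higher in SCI than in sham osteoblast pools and 1.48% were lower in SCI+FES than in SCI. Of 13 osteoblast transcription factors with a probe, 6 were detected in SCI or sham osteoblast pools, 1 was higher in SCI (Tcf7, a Wnt pathway factor that T cells also express, 1.13) and 0 were lower, with a list median of 0.50. For SCI+FES minus SCI, 1 of 6 was lower, Twist1 (-1.11 ± 0.13), with a median of 0.04. Twist1 encodes a factor that restrains osteoblast differentiation. The probes of Runx2 and Sp7, which direct osteoblast fate, were detected in no pool, so these probes give no level for either factor. Of 12 genes of mineral formation and its inhibitors, 3 were higher in SCI than in sham, Phospho1 (at least 2.41-fold), Car3 (at least 3.56-fold) and Mgp (3.89-fold on means of 10.78 and 8.82), and 0 were lower. Phospho1 encodes a phosphatase of matrix vesicles that acts on phosphocholine. Its probe was also detected in every osteoclast pool (7.3 in SCI+FES, 7.3 in SCI and 7.4 in sham). Phospho1 and Car3, carbonic anhydrase 3, were at least 2.39-fold and at least 3.54-fold lower in SCI+FES than in SCI osteoblast pools. Clec11a, which encodes the bone growth factor osteolectin, was lower too (-1.51 ± 0.04). Mgp, a matrix inhibitor of mineral growth, went the other way and was higher in SCI+FES than in SCI (1.62 ± 0.13). The list medians were 0.14 and -0.19.

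Of 10 bone matrix genes, 2 were lower in SCI+FES than in SCI, Omd (at least 2.29-fold) and Col1a1 (-1.40 ± 0.09), and 1, Mgp, was higher, with a median of -0.51 over 8 detected. Omd is the proteoglycan osteomodulin and Col1a1 a chain of type I collagen, whose other chain gene Col1a2 differed by -0.15 ± 0.07. Of 11 osteocyte genes other than Dmp1, 0 of 8 detected were higher or lower in SCI against sham or in SCI+FES against SCI, with medians of -0.10 and -0.20. Phex, an osteocyte peptidase that limits phosphate loss, was at least 1.58-fold higher in SCI than in sham and at least 1.56-fold lower in SCI+FES than in SCI. For Dkk1, a secreted Wnt inhibitor, these bounds were 1.17-fold and 1.16-fold. Cd44, a hyaluronan receptor gene, differed by 0.78 ± 0.07 for SCI minus sham and by 0.40 ± 0.07 for SCI+FES minus SCI, and was higher by the rule in SCI+FES than in sham (1.17 ± 0.05). Sost, the osteocyte gene of sclerostin, was detected on 1 of 6 osteoblast arrays. In the osteoclast cultures both arrays of every pool detected its probe, at 7.44 in SCI+FES, 7.24 in SCI and 7.06 in sham. Of 17 genes of the parathyroid hormone receptor pathway other than Pthr1, 10 were detected and 1 was lower in SCI than in sham, the phosphodiesterase gene Pde4b (-1.01 ± 0.05). For SCI+FES minus SCI 0 of 10 passed, beside the 7.75-fold difference of the receptor itself. The probes of Gnas, Adcy6 and Pthlh, among others of this list, were detected in no pool and give no level. The count thus does not show whether the pathway changed. Crem, a cAMP-responsive transcription factor gene, was higher in SCI+FES than in sham (1.26 ± 0.04).

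Markers of other cells and cell cycle genes also differed between the same osteoblast pools. The 8 stromal markers were all detected and summed to 94127 to 97474 in SCI+FES, 121942 to 124117 in SCI and 128706 to 128757 in sham. The 10 genes summed to 1981 to 1987, 14536 to 15343 and 4059 to 4129, in the same pools. The 7 T cell markers summed to 9001 to 9479 in SCI+FES, 2816 to 2950 in SCI and 2627 to 2668 in sham, with Cd3d, Cd3e, Cd3g, Cd2 and Cd247 undetected in sham. These sums include the levels of undetected genes, and Cd8a, the brightest, read 12.54, 10.59 and 10.78 in the same pools. By the size rule Cd3d, Cd3e, Cd3g, Cd8a and Cd247 were higher in SCI+FES than in SCI, and Cd3d and Cd3g were higher in SCI than in sham. Cd4 was lowest in SCI+FES, at 7.89, against 8.58 in SCI and 8.76 in sham. The 9 macrophage markers summed to 108395 to 113395 in SCI+FES, 81352 to 83250 in SCI and 87953 to 88975 in sham. The 5 smooth muscle markers summed to 25906 to 26229 in SCI+FES, 40536 to 41630 in SCI and 29978 to 33009 in sham. Of 18 cell cycle genes, 11 were higher in SCI than in sham and 14 were higher in SCI+FES than in sham, with medians of 1.13 and 1.46, and 0 differed by the rule between SCI+FES and SCI. The 11 were Ccna2, Ccnb2, Cdc2, Cdc20, Ube2c, Rrm2, Mcm2, Mcm3, Mcm6, Mcm7 and Aurkb (1.04 to 1.75). In SCI+FES they were joined by Pcna, Tyms and Bub1b, and all 14 together ranged from 1.07 to 2.28. All 5 chondrocyte markers, Col2a1, Acan, Sox9, Col9a1 and Matn3, were undetected in every pool. The part of the stromal, T cell, macrophage, smooth muscle and cell cycle changes in the values of the 10 genes was not tested.

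**Figure D3:**
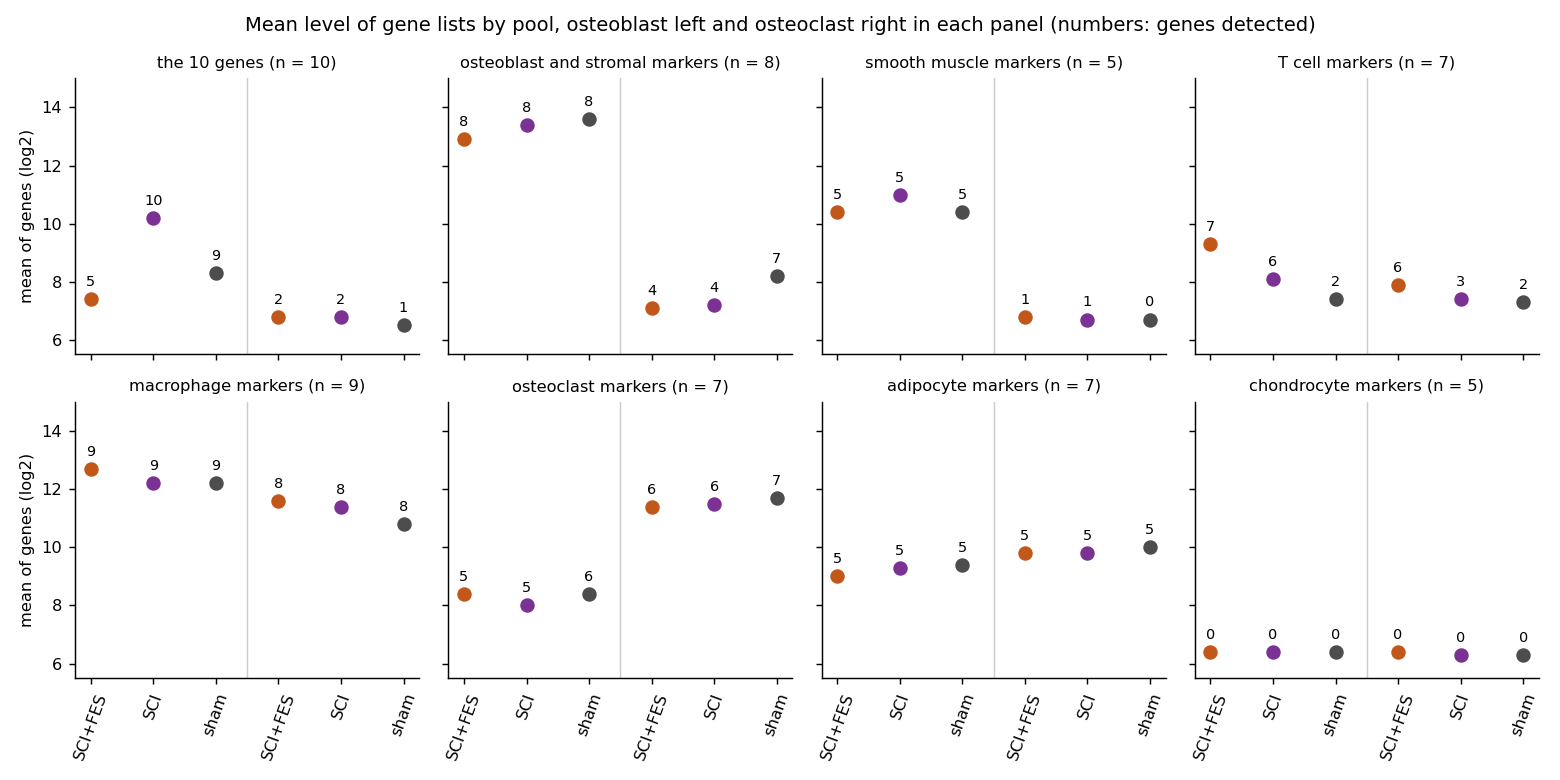
Mean level (log2, vertical axis) of the 10 genes and of 7 marker lists in each pool (horizontal axis, SCI+FES, SCI and sham, osteoblast cultures left and osteoclast cultures right of the line), with the number of genes detected above each point. The mean of the 10 genes is 7.4 in the SCI+FES, 10.2 in the SCI and 8.3 in the sham osteoblast pool, against 12.9, 13.4 and 13.6 for the stromal markers.

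The 10 genes resembled each other to different degrees. Over the 6 pool means, each gene's r with the mean of the other 9 was highest for Bglap (0.98) and Ifitm5 (0.97) and lowest for Smpd3 (0.68), Kazald1 (0.73) and Dmp1 (0.87). Smpd3 and Kazald1 are the 2 genes that osteoclast pools also detected. Among 771 other probes that were detected and ranged over at least 2-fold across the osteoblast pools, r with the mean profile of the 10 genes had a median of 0.32 and exceeded 0.90 for 36. The nearest reported here were Mustn1 (0.98), a small nuclear protein of muscle and skeleton, Mamdc2 (0.98), Cgref1 (0.98) and Rap1ga1 (0.98). After them came Cpz, the proprotein convertase Pcsk6, the amino acid transporter Slc6a15, Plac9 and Lrrc17 (0.97). Mustn1 averaged 8.02 in SCI+FES, 10.44 in SCI and 9.04 in sham osteoblast pools, and 6.98, 6.86 and 6.81 in the SCI+FES, SCI and sham osteoclast pools. Mamdc2 had the widest differences of these 9 probes, 2.19 for SCI minus sham and -2.71 for SCI+FES minus SCI. The genes were chosen for a shared pattern over the osteoblast pools, so a high r among them follows from that choice. The points share pools, arrays and normalization, and r over 6 pools is a description.

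**Figure D4:**
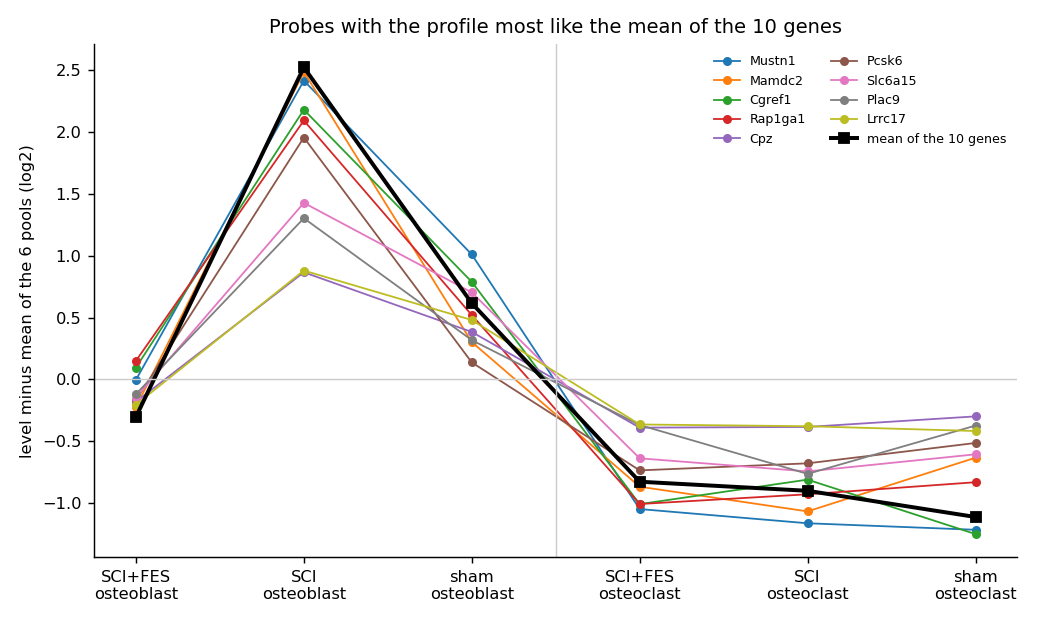
Level minus the mean of the 6 pools (log2, vertical axis) of the mean of the 10 genes (black) and of 9 other probes with a closely similar profile (colours), by pool (horizontal axis). All lines peak in the SCI osteoblast pool, and all are lower in the SCI+FES than in the sham osteoblast pool.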

How the data were processed

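RNA of 6 pools on 2 arrays each was measured on Illumina rat arrays, per the labels, with biotinylated cRNA made by a MessageAmp kit. The deposited table pairs intensity with detection p-value for 22523 probes, per the file headers. Background had been subtracted before deposit, since 26.8% to 30.4% of an array's intensity values were negative, by software that the labels and headers do not name. Each deposited detection p-value moves in steps of 1 over 825. The matrix made by the authors holds the same intensity values, rescaled linearly for each array (slope 0.731 to 1.42, r = 1), and served as an alternative.

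Signals were corrected by normexp with limma's own fit and an offset of 50, which understates folds of dim probes, quantile normalized over 12 arrays and put on the log2 scale. Between 33.7% and 38.3% of probes were detected per array at p of at most 0.01, and duplicates correlated at 0.996 to 0.997. The number of arrays and pools limits the precision. Treatment comparisons used the size rule without a test. Osteoblast minus osteoclast was fitted in limma on 6 pool means with Benjamini-Hochberg adjustment over 9102 probes, and p-values measure the spread between pools of different treatments. In an "at least" fold each undetected array of the dimmer pool takes the array's lowest detected level, or the probe's level where that is higher. Alternatives were another offset, log2 of the signal plus 16, the matrix values, quantile normalization within culture type, scaling to a common median, other detection limits, each array or pool left out, treatment as a block and 12 arrays with the pool as a random block.

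All 10 genes are named, as are genes of the pathway lists past the size rule and up to 4 more that define a list (markers of cell types are given mainly as sums), family relatives with a probe, and 9 of the 10 probes with the highest r with the mean profile. A gene of the transcription factor list is not reported here. The members and lists were chosen with earlier results of these data known. List symbols were matched through RefSeq's older symbols and gene IDs where needed. Software was limma 3.58.1 in R 4.3.3, and pandas 2.3.3 in Python 3.11.15.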

Additional observations from a re-analysis of the deposited data

Results flagged for a closer look

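For Smpd3 and Kazald1, of the 10 genes the only 2 detected in both culture types, a treatment difference had opposite directions in the 2 culture types, with both arrays of each pool apart. In each case the difference between the culture types was not tested, because each side is a single pool. Smpd3 was lower in SCI+FES than in sham osteoblast pools (-1.74) and higher in SCI+FES than in sham osteoclast pools (1.22), a gap of 2.96 on the log2 scale. Kazald1 differed between SCI+FES and sham by -0.38 in osteoblast pools and by 2.00 in osteoclast pools, a measured gap of 2.38. The sham osteoclast pool did not detect Kazald1, so its osteoclast difference is only known to be at least 3.38-fold, and the gap is uncertain. Kazald1 also differed between SCI+FES and SCI by -1.29 in osteoblast pools and by 0.25 in osteoclast pools, a gap of 1.54. In contrast, both genes were higher in SCI than in sham in both culture types. Smpd3 was 1.55-fold higher in osteoblast and 2.71-fold in osteoclast pools, and Kazald1 1.88-fold and at least 2.84-fold.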

How the results depend on the processing

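The SCI+FES minus SCI difference in osteoblast pools was below 0 and past the size rule for all 10 genes under every setting tried. Of the 10 genes, 6 to 9 passed for SCI minus sham and 6 or 7 for SCI+FES minus sham. With scaling to a common median, the median of detected probes in osteoblast pools was -0.22 for SCI minus sham and -0.15 for SCI+FES minus sham. In osteoclast pools it was -0.35 for SCI+FES minus SCI and -0.40 for SCI+FES minus sham. The reported setting gave -0.02, -0.02, -0.01 and 0.01 in the same order. Under the common median Alpl fell short of 2-fold for SCI minus sham (0.88). There 1 gene in place of 2 was higher in SCI+FES than in sham osteoclast pools, because Smpd3 was at 0.82. Dlx5 passed for SCI minus sham in 3 of 9 other settings and Kazald1 in 2 of 9. Between culture types, 3 genes passed in the reported fit, 7 with 12 arrays and the pool as a random block, and 2 to 6 with 1 pool left out, the highest count without the SCI+FES osteoblast pool. With 1 pool left out, osteoblast minus osteoclast ran from -0.016 to 1.14 for Dmp1 and from -0.0156 to 1.17 for Smpd3, negative without the SCI osteoblast pool and highest without the SCI+FES osteoblast pool, against 0.74 and 0.48 with all pools. Over all probes the contrast called 602 higher and 447 lower, against 708 and 323 with a common median, 725 and 329 with quantiles within culture type, and 896 and 714 with log2 of the signal plus 16. The duplicate numbers mark arrays of 1 pool, which were averaged before the fit, so they pair nothing, while treatment as a block, which pairs the culture types, called the same 3 genes and 627 probes higher and 455 lower. The cause of these shifts was not tested. Among osteoblast pools, Panx3, Ifitm5, Bglap, Dlx5 and Dmp1 in SCI+FES and Dmp1 in sham have only a bound.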
